A study of Homo sapiens with 9 samples.

Results

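The mucins MUC1, MUC2, MUC5AC, MUC5B, MUC13 and MUC20 and the trefoil factors TFF1, TFF2 and TFF3 were examined in HCT116 cells, a human colorectal carcinoma line. The 9 genes were chosen by name, with earlier results of these data known. The deposited table of 33861 genes held a row for 7 of the 9, TFF1 and TFF3 were not analysed here, and 6 of the 7 passed the filter on low counts that left 20988 genes for testing. RNA sequencing after removal of ribosomal RNA gave 9 libraries, 3 per group. Control cells were labelled NC, activin cells received activin A at 100 ng/mL for 5 days, and activin + HGF cells received the same activin treatment and then hepatocyte growth factor (HGF) at 20 ng/mL for another 5 days. All groups are the same cell line, and no group received HGF without activin. The sources used here do not say whether activin was present during the HGF days. The effects of HGF, of the 5 further days in culture and of any end of activin treatment therefore cannot be told apart. The culture time of the control cells is not given in the sources used here either, so an effect of activin cannot be told from one of culture time. Nothing in the sources says that the 3 libraries of a group came from separate cultures, so the p-values measure the spread between these libraries, which may be technical.

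Mucins are large proteins that carry dense O-linked sugars on repeated stretches rich in serine, threonine and proline. MUC2, MUC5AC and MUC5B are secreted and form gels, whereas MUC1, MUC13 and MUC20 span the cell membrane and can take part in signalling. Trefoil factors are small secreted peptides that are made with mucins and help the gut lining to close wounds. In the normal colon MUC2 and TFF3 come from goblet cells, MUC5AC and TFF1 belong to the gastric surface, and TFF2 and MUC6 belong to gastric glands.

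The repeated stretches bear on how short reads can be counted, so the units of the 2 members with the most exact copies are shown first. Each was read from the GENCODE sequence on GRCh38 of the longest transcript that the deposited data list for the gene. The copies lie within its coding exons, 5′ to 3′ along the transcript. The first copy of the MUC1 unit of 60 bases lies at chr1:155191821-155191880 on the minus strand in exon 2. This unit had 19 exact copies in the transcript, from exon 2 to exon 6. The MUC20 unit of 57 bases lies at chr3:195725165-195725221 on the plus strand in exon 1 and had 10 exact copies.
MUC1: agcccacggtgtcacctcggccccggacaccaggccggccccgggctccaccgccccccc
MUC20: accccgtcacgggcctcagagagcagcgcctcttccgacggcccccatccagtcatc

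Among windows of 50 bases along the transcript, 42.4% of those in MUC1 occurred more than once, and the share was 29.2% in MUC5B, 21.4% in MUC5AC, 21.4% in MUC2 and 19.7% in MUC20. MUC13 and TFF2 had 0 such windows. MUC20 differed from the other members in what it shared with other genes. For MUC20, 69.1% of windows also occurred in a transcript of another gene, 1301 of its 2793 windows in the pseudogene MUC20P1, against 2.30% for MUC5B, 0.379% for MUC5AC and 0 for the rest. Reads from MUC20 and MUC20P1 could be exchanged in counting, so the values of both are given.

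Transcripts of the 7 members with a row were scarce in all 3 groups, whereas MUC3A and CD164, mucins outside the members, had more, as given below. The summed level of the 7 genes was 9.66 ± 2.55 CPM (counts relative to the TMM-scaled library total; SD, n = 3) in control cells, 8.80 ± 2.40 CPM in activin cells and 5.67 ± 0.715 CPM in activin + HGF cells. Total counts ran from 57453977 to 77016167 per library, so 3 counts, taken as the limit that a count of 0 allows, corresponded to 0.0373 to 0.0551 CPM. These limits cover counting error only. They also assume that each count is 1 independent read, which is uncertain here because the counts may come from coverage. Folds written as bounds below share this limit. The TMM factors were 0.783 to 0.926 in activin + HGF libraries and 0.988 to 1.17 in the others. Per length, on the FPKM scale of the deposited values, MUC20 had the highest group mean in every group, at 0.657 FPKM in control, 0.76 in activin and 0.30 in activin + HGF cells. The median tested gene had a mean of 1.62, 1.77 and 1.26 FPKM in the same groups, and 37.0% of tested genes had a lower mean than MUC20 in control cells. MUC1 and MUC13 followed in that order in every group, and the libraries of MUC1 overlapped with those of MUC13 each time. MUC20 stood above MUC1 in every pair of libraries in activin + HGF cells, with overlap in the other two groups. In control and activin cells MUC13 in turn stood above each lower-ranked member in all pairs of libraries, whereas in activin + HGF cells it overlapped with TFF2. The mean of MUC5B was at most 0.0333 FPKM, that of MUC2 at most 0.0133, that of MUC5AC at most 0.0167 and that of TFF2 at most 0.0900, where the 2 printed decimals of the FPKM values limit any ranking.

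The first comparison asked what activin did against control. A gene was called when the edgeR adjusted p was under 0.05 and the log2 fold change at least 1 in size. Of the 6 members tested, 1 was called, MUC5AC, which passed the low-count filter through the activin libraries alone, and 11.4% of all tested genes were called in this comparison, 6.78% higher and 4.62% lower. The median log2 fold change was -0.16 over the 6 members and 0.02 over all tested genes. At an unadjusted p under 0.05 the count was also 1 of 6, against 31.2% of all tested genes.

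MUC5AC, the gel-forming mucin of the gastric surface (chromosome 11, 1157953 to 1201138, plus strand, in GRCh38), was listed at 0 counts in all 3 control libraries. In activin libraries it had 23, 14 and 21 counts, and in all 3 activin + HGF libraries it was again at 0. The groups therefore did not overlap, which held for 42.2% of all tested genes in the comparison of activin with control. Against a floor of 3 counts per library, the activin mean of MUC5AC was at least 5.55-fold above control, with an edgeR adjusted p of 0.0380. The call rested on few counts in a gene that entered the test only through the group where it was present, and with no filter on low counts the adjusted p was 0.0539. The call was also lost when any 1 of the 6 libraries compared was left out, with adjusted p from 0.0763 to 0.119, and it was kept in 3 of the 12 alternatives that tested it, over which the adjusted p ran from 0.0159 to 0.164. Activin + HGF cells were at least 4.93-fold below the activin mean, with an edgeR adjusted p of 0.0502, which missed the threshold. DESeq2 gave an adjusted p of 0.0225 for that step. Activin + HGF and control cells were both at the floor, and no fold is given.

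Other genes had the same pattern over the 9 libraries as MUC5AC. Of 12082 genes with a mean of at least 1 FPKM, the 3 with the highest Pearson correlation of log2 CPM were the chemokine CXCL10 (r = 0.999) and the type III interferons IFNL2 (r = 0.996) and IFNL1 (r = 0.986). CXCL10 had 209 to 349 counts and IFNL2 1061 to 1125 counts in activin libraries, and both were at 0 in every other library. IFNL1 had 942 to 1184 counts in activin libraries and 0 to 4 in the other libraries. These correlations are descriptions over 9 libraries that fall into a group with counts and groups at 0. The summed level of 6 leukocyte markers ran from 2.09 to 4.05 CPM in control, 10.95 to 23.3 in activin and 17.4 to 25.7 in activin + HGF libraries, with most of it from CD68. PTPRC and CD3E, which define leukocytes and T cells, had 0 to 11 counts per library. The other markers had more, with CD79A at 12 to 28 and CD14 at 0 to 55 counts per library. LYZ had 8 to 19 counts in control, 61 to 116 in activin and 28 to 79 in activin + HGF libraries.

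MUC2, the main gel-forming mucin of goblet cells (chromosome 11, 1074875 to 1110511, plus strand), was near the floor. It had 17, 12 and 17 counts in control, 13, 0 and 21 in activin, and 10, 16 and 0 in activin + HGF libraries. All 3 groups overlapped. The log2 fold change was -0.54 for activin against control (SE 1.42, edgeR adjusted p = 0.847) and -0.67 for activin + HGF against control (SE 1.43, edgeR adjusted p = 0.756). With standard errors of this size, a change of several-fold in either direction would not have been detectable at this depth. The 1 transcript listed for MUC2 is a processed transcript with 0 coding bases, and whether these counts cover the coding mRNA was not tested.

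MUC5B, a gel-forming mucin of airway and salivary glands (chromosome 11, 1223066 to 1262172, plus strand), had 15, 23 and 45 counts in control, 11, 72 and 23 in activin, and 44, 59 and 41 in activin + HGF libraries. One activin library was far above the other two, at 1.15 CPM against 0.149 and 0.306, and without it the log2 fold change against control went from 0.48 to -0.75. Activin + HGF cells had 0.768 ± 0.115 CPM against 0.382 ± 0.161 in control cells, without overlap. That difference was 1.00 on the log2 scale (SE 0.733, edgeR adjusted p = 0.333) and was not called.

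MUC2, MUC5AC and MUC5B lie side by side on chromosome 11, with MUC6 at the other end of the same cluster. The 3 nearest tested genes on one side were TSPAN4, CHID1 and AP2A2, those on the other side were TOLLIP, TOLLIP-AS1 and AC136297, and LINC02688 lay inside. None of these 7 genes was called by edgeR in any of the 3 comparisons, in which 11.4%, 8.09% and 21.5% of all tested genes were called. So few genes cannot tell a count of 0 from those shares. TSPAN4 had a log2 fold change of 0.82 in activin + HGF against control (edgeR adjusted p = 0.0305), under the minimum fold.

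MUC1, a membrane mucin of most glandular epithelia (chromosome 1, 155185824 to 155192915, minus strand), had 193, 133 and 152 counts in control cells. Activin libraries had 83, 73 and 217 counts, so that 1 of the 3 lay in the control range and the groups overlapped. Activin + HGF libraries had 62, 79 and 62 counts, below every control library once scaled to depth. The log2 fold change was -0.44 for activin against control (SE 0.428, edgeR adjusted p = 0.549). For activin + HGF against control it was -1.11 (SE 0.434, edgeR adjusted p = 0.0766), from 2.34 ± 0.705 to 1.08 ± 0.102 CPM, which missed the threshold. With a fit on those 2 groups alone the adjusted p was 0.0322.

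MUC13, a membrane mucin of the intestine (chromosome 3, 124905442 to 124934751, minus strand), had 141, 62 and 143 counts in control, 59, 16 and 76 in activin, and 34, 27 and 67 in activin + HGF libraries. The second control library overlapped with both treated groups. The level went from 1.67 ± 0.697 CPM in control to 0.689 ± 0.390 in activin and 0.687 ± 0.331 in activin + HGF cells. The log2 fold changes against control were -1.27 for activin (SE 0.592, edgeR adjusted p = 0.175) and -1.28 for activin + HGF (SE 0.594, edgeR adjusted p = 0.128), and neither was called.

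MUC20, a membrane mucin known to bind the HGF receptor MET (chromosome 3, 195720884 to 195741123, plus strand), was the member with the most counts. It had 367, 239 and 441 counts in control, 380, 271 and 510 in activin, and 191, 159 and 183 in activin + HGF libraries. Control and activin cells overlapped, and every activin + HGF library was below every library of both other groups in CPM. The gap to control was narrow, from 3.51 CPM in the highest activin + HGF library to 3.55 CPM in the lowest control library. The log2 fold change was 0.12 for activin against control (SE 0.298, edgeR adjusted p = 0.842), -0.91 for activin + HGF against activin (SE 0.302, unadjusted p = 0.0124, edgeR adjusted p = 0.0730) and -0.79 for activin + HGF against control (SE 0.301, unadjusted p = 0.0241, edgeR adjusted p = 0.0685). DESeq2 gave adjusted p of 0.0292 and 0.0449 for the last 2 comparisons, with log2 fold changes still under 1 in size.

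MUC20P1 had 142, 99 and 176 counts in control, 162, 72 and 187 in activin, and 52, 68 and 58 in activin + HGF libraries. It was also without overlap between activin + HGF and either other group. Its log2 fold change was -1.04 for activin + HGF against activin (edgeR adjusted p = 0.0946) and -1.07 against control (edgeR adjusted p = 0.0529). Over the 9 libraries MUC20 and MUC20P1 correlated with r = 0.90, a description of genes that share sequence. MUC20-OT1, a transcript on the same strand that overlaps MUC20, had 996 to 2658 counts in activin + HGF libraries and 1069 to 1466 in the others, with r = -0.21 to MUC20. The gene most like MUC20 was YAP1, a transcriptional cofactor (r = 0.96), with 112 ± 23.7 CPM in control, 130 ± 24.1 in activin and 68.4 ± 7.03 in activin + HGF cells.

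TFF2, the trefoil factor of gastric glands (chromosome 21, 42346357 to 42350997, minus strand), had 4, 0 and 4 counts in control, 0 in every activin library, and 10, 7 and 0 in activin + HGF libraries. It did not pass the filter on low counts and was not tested. The groups overlapped at 0, and no difference was detectable at this depth. The 1 transcript listed for TFF2 is a processed transcript with 0 coding bases, and whether these counts cover the coding mRNA was not tested. Of the 3 nearest tested genes on each side, ZBTB21 rose against control by 1.37 with activin and by 1.38 with activin + HGF on the log2 scale (edgeR adjusted p = 0.0241 and 0.0148), ZNF295-AS1 had a log2 fold change of -3.29 with activin + HGF (edgeR adjusted p = 0.0333), and the other 4 were not called in any comparison. Against control, 11.4% of all tested genes were called with activin and 21.5% with activin + HGF.

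The members varied together only in part. Over the 9 libraries the correlation of log2 CPM was highest between MUC1 and MUC20 (r = 0.71) and between MUC1 and MUC13 (r = 0.65), and MUC5B was negatively correlated with each of the other 5, with r from -0.61 to -0.29. The genes most like the remaining members were DEK, a chromatin protein, for MUC1 (r = 0.96), SLC25A14, a mitochondrial carrier, for MUC13 (r = 0.96), AGAP7P for MUC2 (r = 0.96) and LSP1P5 for MUC5B (r = 0.94). DEK had 85.0 ± 20.2 CPM in control, 73.7 ± 24.4 in activin and 51.5 ± 0.689 in activin + HGF cells, with its spread smallest where that of MUC1 was smallest. These values describe 9 libraries that fall into 3 groups and differ in depth, and for MUC2 they rest on counts near the floor.

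In the comparison of activin + HGF with activin, 0 of the 6 members were called by edgeR, while 8.09% of all tested genes were, 3.87% higher and 4.21% lower. At an unadjusted p under 0.05 there were 2, MUC5AC and MUC20, against 30.1% of all tested genes, and the same 2 did not overlap between groups, against 32.7%. DESeq2 called 1, MUC5AC. In the comparison of activin + HGF with control, 0 of the 6 were called by edgeR and 0 by DESeq2, while edgeR called 21.5% of all tested genes, 11.3% higher and 10.2% lower. At an unadjusted p under 0.05 there were 2, MUC1 and MUC20, against 42.4% of all tested genes, and 3 of the 6 did not overlap between groups, against 53.8%. The median log2 fold change over the 6 members was -0.40 in the first of these comparisons and -0.73 in the second, against -0.04 and -0.03 over all tested genes. The comparisons share control or activin libraries and are not independent of each other.

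**Figure D1:**
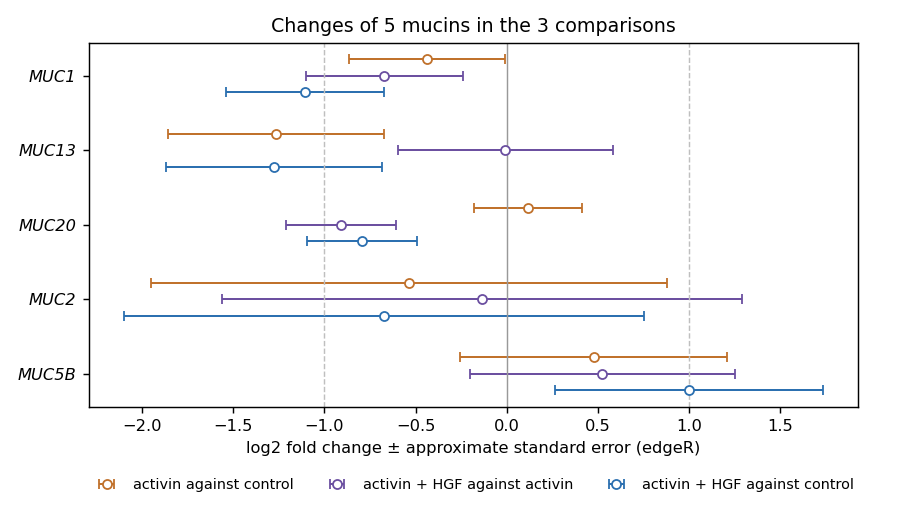
Log2 fold change (x axis) with its approximate standard error for 5 mucins (y axis) in the 3 comparisons (colours), with dashed lines at a change of 1 in either direction. Every point is open since none of the 5 was called; MUC5AC is left out because its folds are bounds against groups at 0.

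The genes that build, process or control mucus were taken from 5 lists of 92 genes, of which 78 had a row and 66 were tested. Activin against control called 10 of the 66, 9 higher and 1 lower. Activin + HGF against activin called 9, with 6 higher and 3 lower, and activin + HGF against control called 22, with 14 higher and 8 lower. Whichever of the 6 libraries compared was left out, 7 of the 10 calls with activin held, as did 2 of the 9 in the step to activin + HGF (FUT2 and HES1) and 15 of the 22 in activin + HGF against control. The 9 calls of the HGF step went to 2 without Activin replicate 1, 3 without Activin replicate 3, 5 without Activin+HGF replicate 1 and 2 when only the groups compared were fitted. These counts are 15.2%, 13.6% and 33.3% of the 66 genes, beside 11.4%, 8.09% and 21.5% of all tested genes. The lists were chosen with earlier results of these data known, so their larger shares are descriptions and give no independent support. The median log2 fold change over the 66 genes was 0.29, -0.03 and 0.20 in the same order.

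Of the 8 tested mucins outside the 9 members, 1 was called with activin, 2 in the step from activin to activin + HGF and 4 in activin + HGF against control. The shares over all tested genes were 11.4%, 8.09% and 21.5% in the same order. MUC3A and MUC12, membrane mucins of the intestinal brush border, were each called higher in 1 comparison. MUC12 had 253, 343 and 344 counts in control, 795, 763 and 858 in activin, and 432, 570 and 415 in activin + HGF libraries. It rose with activin by 1.35 on the log2 scale (SE 0.209, edgeR adjusted p = 0.00194), and in activin + HGF cells its difference from control was 0.75 (edgeR adjusted p = 0.0202), under the minimum fold. Of the 50-base windows in the longest listed transcript of MUC12, 61.5% occurred more than once. That share was 28.3% for MUC4, 1.86% for MUC3A and 1.76% for MUC6. MUC3A had the most counts of the mucins named MUC, 1592, 2131 and 2356 in control, 2994, 3976 and 2924 in activin, and 3725, 3652 and 3466 in activin + HGF libraries. Its difference from control was 0.72 with activin (edgeR adjusted p = 0.0466) and 1.01 with activin + HGF (SE 0.222, edgeR adjusted p = 0.00661), of which the second passed the minimum fold, though not without NC replicate 1 (0.90) or Activin+HGF replicate 1 (0.89).

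MUC4, MUC6 and MUC19 were called lower in activin + HGF cells than in control cells, and of the 3 only MUC4 was called in the HGF step. MUC4, a membrane mucin that binds ERBB2, had 106, 150 and 164 counts in control, 158, 116 and 160 in activin, and 50, 39 and 63 in activin + HGF libraries. It fell by 1.31 on the log2 scale from activin to activin + HGF (SE 0.336, edgeR adjusted p = 0.0315) and had a log2 fold change of -1.28 against control (edgeR adjusted p = 0.0157). The MUC4 call in the HGF step was lost without Activin replicate 1, Activin replicate 3 or Activin+HGF replicate 2, with adjusted p of 0.0744 to 0.0901, and that against control without NC replicate 2, NC replicate 3 or Activin+HGF replicate 2, with adjusted p of 0.0544 to 0.0562. MUC6, the gel-forming mucin of gastric glands, had 38, 28 and 38 counts in control libraries. It had 24, 4 and 0 counts in activin libraries and 0 in every activin + HGF library. Its control mean was at least 9.13-fold above activin + HGF cells (edgeR adjusted p = 0.0182, and 0.0509 without NC replicate 1). MUC6 could not have passed the low-count filter without the control libraries, where it was highest. Its difference between activin + HGF and activin cells was not called (edgeR adjusted p = 0.0832). MUC19, another gel-forming mucin, had 25, 46 and 4 counts in control, 6, 0 and 19 in activin, and 0 in every activin + HGF library. Its control mean was at least 6.91-fold above activin + HGF cells (edgeR adjusted p = 0.0322). This does not hold for each control library, since NC replicate 3, at 0.0497 CPM, lay under the largest activin + HGF floor of 0.0551 CPM. The bound was at least 4.16-fold without NC replicate 2, and MUC19 stayed called when NC replicate 3 was dropped but in none of the other 5 such fits, with adjusted p up to 0.0930. MUC19 also could not have passed the filter without control libraries. CD164, a small sialomucin found on many cells, rose from activin to activin + HGF by 1.09 on the log2 scale (SE 0.246, edgeR adjusted p = 0.0200), from 111 ± 26.3 to 237 ± 60.2 CPM. That call was lost without Activin replicate 1, Activin replicate 2 or Activin+HGF replicate 1, with log2 fold changes of 0.88 to 0.98.

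**Figure D2:**
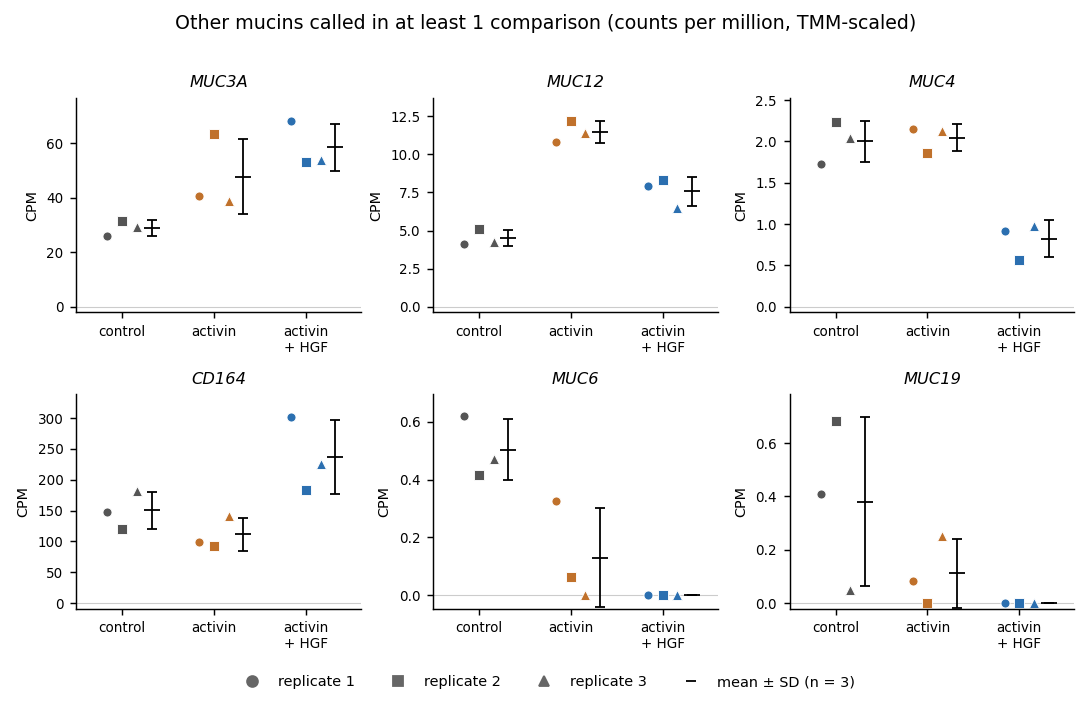
Level in CPM (y axis, linear, with its own range per panel) of 6 mucins outside the members in the control, activin and activin + HGF libraries (x axis), with the replicate number as symbol and the mean ± SD of 3 libraries in black. MUC12 is highest in the 3 activin libraries, and MUC6 and MUC19 are at 0 in all 3 activin + HGF libraries.

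Of 22 tested enzymes of mucin O-glycosylation, 3 were called with activin (all higher), 3 in the step to activin + HGF (2 higher, 1 lower) and 6 in activin + HGF against control (4 higher, 2 lower). Over all tested genes, 11.4%, 8.09% and 21.5% were called in the same order. GCNT3, which branches the mucin sugars, had 142, 192 and 280 counts in control, 727, 494 and 399 in activin, and 653, 1424 and 1132 in activin + HGF libraries. It rose by 1.41 with activin (edgeR adjusted p = 0.00966) and by a further 1.13 with HGF (edgeR adjusted p = 0.0348) on the log2 scale. GALNT3, which adds the first sugar, rose by 1.13 and then by 1.39 (edgeR adjusted p = 0.0183 and 0.0131). Against control, activin + HGF cells were 2.54 higher for GCNT3 and 2.52 higher for GALNT3. Both of these calls held in all 6 fits that left out 1 library (edgeR adjusted p up to 0.00296 and 0.00214). ST3GAL1, which caps the sugars with sialic acid, rose by 1.09 with activin (edgeR adjusted p = 0.00131) and stood 1.77 above control after HGF. GALNT2, another enzyme that starts the chains, was 1.01 above control in activin + HGF cells (edgeR adjusted p = 0.00220). FUT2, which makes the secretor blood group sugars, had 521, 483 and 625 counts in control, 345, 480 and 404 in activin, and 102, 104 and 184 in activin + HGF libraries, a log2 fold change of -1.50 in the HGF step (edgeR adjusted p = 0.0142) and -1.91 against control. GALNT7, which extends sugars already begun, had a log2 fold change of -1.20 in activin + HGF against control (edgeR adjusted p = 0.00745). Some of these calls depended on single libraries. The GCNT3 call in the HGF step was lost without Activin replicate 1 or 3 or Activin+HGF replicate 2 or 3, with adjusted p up to 0.143. The GALNT3 call with activin was lost in 4 of 6 such fits (without NC replicate 2 or 3 or Activin replicate 1 or 3) and its call in the HGF step in 2 (without Activin replicate 1 or 3), with adjusted p up to 0.0730. ST3GAL1 with activin (0.99 without Activin replicate 2) and GALNT2 (0.93 to 1.00 without NC replicate 1 or 2 or Activin+HGF replicate 1 or 2) fell below the minimum fold.

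Of 14 tested transcription factors of goblet and gut cells, 2 were called with activin, both higher, 3 in the step to activin + HGF (2 higher, 1 lower) and 7 in activin + HGF against control (6 higher, 1 lower). Among all tested genes, 11.4%, 8.09% and 21.5% were called in the same order. KLF4, a factor of goblet cell maturation, had 1510, 1697 and 911 counts in control, 9559, 9920 and 9350 in activin, and 5664, 5358 and 9635 in activin + HGF libraries. It rose by 2.75 with activin (SE 0.339, edgeR adjusted p = 5.36e-04) and by 2.44 with activin + HGF against control on the log2 scale. SPDEF, which drives goblet cell differentiation, had 0, 0 and 19 counts in control, 56, 30 and 81 in activin, and 211, 110 and 87 in activin + HGF libraries. It was called in activin + HGF against control alone (log2 fold change 4.75, SE 1.16, edgeR adjusted p = 0.0112). HES1, a Notch target that holds back secretory fate, rose by 1.42 in the HGF step and by 2.37 against control (edgeR adjusted p = 0.00488 and 5.56e-05). GATA6, an endodermal factor, rose by 1.29 with activin and by 1.28 with activin + HGF (edgeR adjusted p = 0.00507 and 0.00307). GATA5, a related factor, was at 0 in every control and activin library and had 26, 16 and 12 counts in activin + HGF libraries. Its activin + HGF mean was at least 6.10-fold above control (edgeR adjusted p = 0.0260). GATA5 entered the test through the activin + HGF libraries alone. Both of its calls were lost when any 1 library was left out, with adjusted p up to 0.0926 against control and 0.147 against activin. CREB3L4, a membrane-bound secretory pathway factor, had a log2 fold change of -1.35 in activin + HGF against control (edgeR adjusted p = 0.0136). SOX9, a crypt progenitor factor, and GFI1, a secretory lineage factor, fell outside the rule for named genes and are given because they complete the counts. SOX9 rose by 1.28 in activin + HGF against control (edgeR adjusted p = 4.54e-04), and GFI1 had a log2 fold change of -1.05 in the HGF step (edgeR adjusted p = 0.0273), a call kept in 1 of 6 fits that left out 1 library (without Activin+HGF replicate 3). ATOH1, the factor that sets secretory fate, had 0 to 30 counts per library and was not called.

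Of 10 tested goblet cell products and mucus granule genes, 3 were called with activin (2 higher, 1 lower), 0 in the step to activin + HGF, where 3 had an unadjusted p under 0.05 and DESeq2 also called 0, and 3 in activin + HGF against control (2 higher, 1 lower). By edgeR, 11.4%, 8.09% and 21.5% of all tested genes were called in the same order. FCGBP, which binds MUC2 in mucus, had 511, 528 and 614 counts in control, 1729, 1481 and 1406 in activin, and 1077, 1245 and 1075 in activin + HGF libraries. It rose by 1.47 and 1.20 against control on the log2 scale (edgeR adjusted p = 5.80e-04 and 9.72e-04). DMBT1, a mucosal scavenger protein, rose with activin by 2.59 (edgeR adjusted p = 0.00693) from 0.438 to 2.64 CPM. MARCKS, a protein of mucin granule release, rose with activin + HGF by 1.66 against control (edgeR adjusted p = 2.50e-04). SYTL2, which is involved in granule docking, had a log2 fold change of -1.70 with activin and -1.69 with activin + HGF (edgeR adjusted p = 0.00695 and 0.00423). Of the 20 genes named in this list, 13 had a row. Some goblet cell products were near absent, with AGR2 at 6, 18 and 12 counts in activin libraries and 0 elsewhere. SPINK4 had 0 to 11 and ITLN1 0 to 8 counts per library. Others had more, with WFDC2 at 4 to 95, ERN2 at 8 to 48 and BCAS1 at 0 to 44 counts, besides FCGBP and DMBT1.

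Of 12 tested partners and sheddases of membrane mucins, 1 was called with activin, 1 in the step to activin + HGF and 2 in activin + HGF against control (1 higher, 1 lower). These counts stand beside 11.4%, 8.09% and 21.5% of all tested genes called in the same order. ADAM17, which cleaves MUC1 from the cell surface, rose with activin by 1.09 on the log2 scale (edgeR adjusted p = 0.00600), with 0.95 and no call without NC replicate 3 or Activin replicate 1. MMP14, another enzyme that sheds MUC1, had 1161, 1696 and 1945 counts in control, 2064, 2521 and 1969 in activin, and 4994, 4073 and 4206 in activin + HGF libraries, and rose by 1.20 in the HGF step (edgeR adjusted p = 0.0131), a call lost without Activin replicate 1, Activin replicate 3 or Activin+HGF replicate 1. Against control, MMP14 was 1.66 higher in activin + HGF cells. That call held in all 6 fits that left out 1 library (edgeR adjusted p up to 0.00554). MET, the HGF receptor, had 20460, 20460 and 27982 counts in control, 19433, 8089 and 18260 in activin, and 5594, 12308 and 10264 in activin + HGF libraries, with a log2 fold change of -1.16 in activin + HGF against control (SE 0.280, edgeR adjusted p = 0.0107; -0.95 and not called without Activin+HGF replicate 1).

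**Figure D3:**
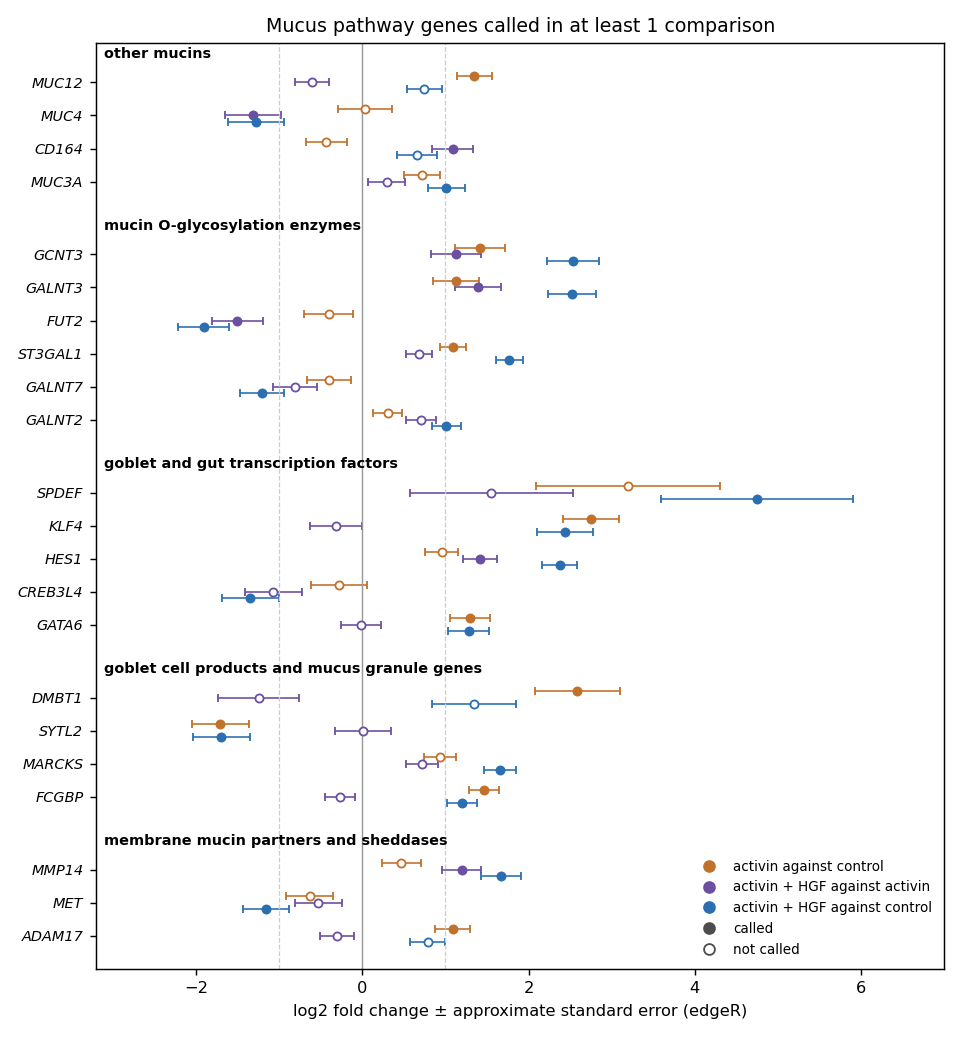
Log2 fold change (x axis) with its approximate standard error for the named genes of the 5 lists (y axis, grouped by list) in the 3 comparisons (colours); filled points were called and open points were not. GCNT3 and GALNT3 are called higher in all 3 comparisons, and genes whose folds are bounds against a group at 0 (MUC6, MUC19 and GATA5) are left out.

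As a check of the cell type, the summed level of 8 colorectal epithelial markers was 2665 to 2934 CPM in control, 1879 to 3121 in activin and 3594 to 3965 in activin + HGF libraries. Most of it came from KRT8, KRT19, KRT18 and EPCAM. KRT20 had means of 4.89, 1.57 and 1.93 CPM in the same order, and CDX2 had 15.3, 14.8 and 18.9 CPM. VIL1, which marks the brush border, was near absent at 0 to 16 counts per library. The summed level of the 6 fibroblast markers with a row was 25.7 to 28.5 CPM in control, 47.9 to 54.8 in activin and 34.0 to 41.9 in activin + HGF libraries, mostly from COL1A1, and 4 endothelial markers summed to at most 2.73 CPM in any library. Their part in the results for the mucins was not tested.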

How the data were processed

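RNA of 9 HCT116 libraries, 3 per group, was sequenced by the authors as paired ends after removal of ribosomal RNA. The submitters' processing notes name cutadapt 1.9, HISAT2 2.0.4 and StringTie 1.3.4d without their roles, and the genome build and annotation are not given in the sources used here. Gene coordinates in the table match GRCh38, since 87.0% of 32930 genes shared at least 1 end with GENCODE on that build, all 7 members among them. The deposited table holds a count per gene, whole numbers that were used as they stand, and an FPKM value per gene to 2 decimals, made by the authors. Among counts of 1 to 40, 35.0% were multiples of 4, against 25% if even, so the counts may come from coverage rather than from single reads, and whether strand was used in counting is not given in the sources used here.

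Groups follow the titles of the libraries. The table's columns were tied to libraries by the description field of the labels. The columns of the activin + HGF libraries carry the name of the cell line alone, so their treatment rests on that field. Counts were filtered (filterByExpr), scaled by TMM and tested with edgeR 4.0.16 in R 4.3.3 (quasi-likelihood test, 1 mean per group, all 9 libraries, Benjamini-Hochberg adjustment over all 20988 tested genes). Standard errors are approximate. For a group with at most 3 counts in every library, the mean CPM of the other group was divided by 3 counts in the smallest library of the low group. The resulting fold was written as a bound, which does not cover the spread of the other group. Alternatives used DESeq2 1.42.0, limma 3.58.1 on log2(FPKM + 0.1) or log2(FPKM + 1), RLE factors, other filters, subsets of libraries, the replicate number as a block and counts divided by 4. The members and lists were chosen with earlier results of these data known. Named genes are all members, up to 6 called genes per list by size of change, the 3 genes most like a member (only some are printed), and genes next to the clusters. Within groups, replicates differed by far more than sampling noise. A group of 3 against 3 cannot give an exact permutation p below 0.1, so no single-gene permutation test was made. Of the members, 2 had no row and were not analysed here.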

Additional observations from a re-analysis of the deposited data

How the results depend on the processing

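Replicate numbers were shared between groups but did not pair the libraries (correlation of deviations from the group means -0.0606 to 0.0882 over 9 pairs; 4 of 9 libraries correlated best with their own number). Under a replicate block, the number of members called with activin against control went from 1 to 0 (MUC5AC, edgeR adjusted p = 0.127), and the MUC13 change in the HGF step turned from -0.01 to 0.0914 on the log2 scale. The count of 1 was also 0 with no low-count filter (adjusted p = 0.0539) and 0 to 0 when any 1 library was left out. It was 0 by construction with a CPM of at least 1 in 3 libraries, with counts divided by 4 and with limma on filtered log2(FPKM + 0.1) and log2(FPKM + 1), where MUC5AC was not tested, and with limma without a filter, where the pseudocount holds its log2 change at 0.22. For activin + HGF against activin the count of 0 was 1 with RLE factors (MUC5AC), with DESeq2 (MUC5AC) and with limma on log2(FPKM + 0.1) (MUC20), 2 at an unadjusted p under 0.05 with no minimum fold, a setting chosen after seeing the data, and 0 to 1 with 1 library left out (MUC20 without Activin replicate 2). For activin + HGF against control it was 1 with only the groups compared (MUC1), 2 at the unadjusted p, and 0 to 1 with 1 library left out (MUC20 without NC replicate 2).

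The 10 list genes called with activin became 17 with no minimum fold, 27 at the unadjusted p and 1 with limma on log2(FPKM + 1). The 9 called in the HGF step became 16, 28 and 2 under the same settings, 2 with only the groups compared, 3 with limma on log2(FPKM + 0.1) without a filter, and 2 to 8 with 1 library left out (2 without Activin replicate 1, 3 without Activin replicate 3, 5 without Activin+HGF replicate 1). The 22 called in activin + HGF against control became 37 at the unadjusted p, 14 with limma on log2(FPKM + 0.1), 14 with that fit without a filter and 11 with limma on log2(FPKM + 1). Some log2 fold changes of members that were not called changed sign. With activin and 1 library left out, MUC5B ran from -0.75 (without Activin replicate 2) to 0.94, MUC2 from -1.22 to 0.0344 (without Activin replicate 2) and MUC20 from -0.0290 (without Activin replicate 3; -0.0258 without NC replicate 2) to 0.31. In the HGF step, MUC2 ran from -0.74 to 0.51 (without Activin replicate 3; 0.44 without Activin+HGF replicate 3) and MUC13 from -0.45 to 0.276 (without Activin+HGF replicate 2), with 0.0233, 0.273 and 0.0589 without Activin replicates 1 and 3 and Activin+HGF replicate 1. The causes were not tested. Depth limits MUC2, MUC5AC, MUC5B and TFF2, which had at most 72 counts in any library.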
